A study of Mus musculus with 4 samples.

Results

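Inflammatory Ly6c2 Chil3 monocytes were examined in mammary tumors of MMTV-PyMT mice, where they made up 242 of the 23572 cells kept in 4 single-cell libraries. A cell was counted as a monocyte when, per 10000 of its UMIs (unique molecular identifiers, each standing for a captured transcript), Chil3 and Ly6c2 together reached at least 5 with at least 2 UMIs, Lyz2 reached at least 5, C1qa, C1qb and C1qc together stayed under 10, S100a8 and S100a9 under 50, and Epcam, Krt8 and Krt18 under 5, with no UMI of Cd3e or Ncr1. Cells with fewer than 1000 UMIs or more than 20% mitochondrial UMIs were left out. The cells were chosen by these measured values, so the levels of these 13 genes are given as a description and were not tested.

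The study asked how loss of Frmd8, a FERM domain protein, in mammary epithelium alters tumors driven by the polyoma middle T antigen. Tumors came from mice of the genotype MMTV-Cre-; Frmd8 fl/fl; PyMT (Cre-, replicates 1 and 3) or its counterpart with the MMTV-Cre transgene, MMTV-Cre+; Frmd8 fl/fl; PyMT (Cre+, replicates 2 and 4), all of 17 to 18 weeks. The paper places the floxed and PyMT lines on a C57BL/6 background and gives none for the MMTV-Cre line. Each replicate was 1 library and was taken here as 1 mouse. Both groups carried the floxed allele and the PyMT oncogene, and the paper describes the Frmd8 knockout as specific to luminal epithelium. Cre activity in monocytes was not tested. Cells were sorted by flow cytometry before droplet capture with 3′ chemistry, which can set the shares of cell types. Monocytes numbered 34 and 46 in Cre- replicates 1 and 3, and 54 and 108 in Cre+ replicates 2 and 4, with median depths of 10937, 10873, 10452.5 and 11163 UMIs. In all results that follow, 4 values stand in this order of libraries, and levels are CPM, the UMIs of a gene per 1000000 UMIs of all cells of that class in that library. Any pair of libraries shared between 9 and 17 cell barcodes of at least 6315, and doublets were not called. Cre+ replicate 4 stood apart in how its data were handled: they were processed with another version of Cell Ranger and deposited without cell filtering. Whether this library was prepared together with the others is not given in the sources used here.

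Classical monocytes leave the bone marrow through the chemokine receptor CCR2, circulate in blood with high surface Ly6C and enter inflamed tissue and tumors. There they can differentiate into macrophages, losing Ly6C and gaining complement C1q, or, in blood, convert into nonclassical monocytes that depend on the nuclear receptor NR4A1. Chil3 encodes the chitinase-like protein Ym1, Ly6c2 a GPI-anchored surface protein, and Ms4a4c a membrane protein with 4 predicted membrane spans in the MS4A family.

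The windows before the transcription starts of the 4 marker genes are shown because these genes were high together in the monocytes, Chil3 and Ly6c2 by the gate. They are the 250 bases before the start in RefSeq on GRCm38.p6, read 5′ to 3′ on the gene's strand, and capitals mark GGAAGT or its reverse complement ACTTCC, letters found in sites bound by ETS factors such as PU.1, the factor encoded by Spi1.
Chil3 (chr3:106167565-106167814, minus strand): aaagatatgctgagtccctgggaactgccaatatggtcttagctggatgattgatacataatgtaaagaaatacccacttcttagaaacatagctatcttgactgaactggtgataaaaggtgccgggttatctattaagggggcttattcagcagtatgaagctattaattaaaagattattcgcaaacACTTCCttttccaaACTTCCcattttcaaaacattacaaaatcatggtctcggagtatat
Ly6c2 (chr15:75111972-75112221, minus strand): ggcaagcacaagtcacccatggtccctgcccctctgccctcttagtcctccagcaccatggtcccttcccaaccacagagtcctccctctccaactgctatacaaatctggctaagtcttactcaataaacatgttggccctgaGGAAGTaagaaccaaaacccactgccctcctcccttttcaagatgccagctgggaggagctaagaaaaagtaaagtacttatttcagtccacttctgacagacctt
Ms4a4c (chr19:11407411-11407660, plus strand): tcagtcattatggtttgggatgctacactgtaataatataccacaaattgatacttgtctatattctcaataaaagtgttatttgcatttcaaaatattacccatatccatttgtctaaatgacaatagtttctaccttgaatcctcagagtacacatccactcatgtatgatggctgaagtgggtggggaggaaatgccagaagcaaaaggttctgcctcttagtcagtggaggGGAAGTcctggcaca
Ccr2 (chr9:124101933-124102182, plus strand): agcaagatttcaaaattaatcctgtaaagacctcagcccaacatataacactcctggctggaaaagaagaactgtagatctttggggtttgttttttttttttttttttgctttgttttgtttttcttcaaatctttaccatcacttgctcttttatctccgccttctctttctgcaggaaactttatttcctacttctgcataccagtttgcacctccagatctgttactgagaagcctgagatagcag
The Chil3 window held 2 matches, the Ly6c2 and Ms4a4c windows 1 each and the Ccr2 window 0, against 19.7% of the 32851 RefSeq windows of this length with at least 1 match. The motif was chosen after the windows had been read, RefSeq lists 2 starts for Ly6c2 of which the first was used, and a match is a description of the letters only.

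Frmd8, the floxed gene, measured 22.7, 25.7, 37.3 and 15.9 CPM in monocytes from 60 UMIs, with 26.2, 23.7, 19.2 and 13.5 CPM in C1q macrophages. In epithelial cells, at which Cre was aimed, it measured 24.2, 24.0, 5.92 and 10.8 CPM. In both epithelial cells and C1q macrophages it was lower in each Cre+ library than in each Cre- library. Monocyte Frmd8 did not separate the genotypes, as Cre+ replicate 2 held the highest level and Cre+ replicate 4 the lowest (log2 fold change 0.01 ± 0.54 SE, adjusted p = 0.998, edgeR). A 3′ count does not show whether the floxed exons were present.

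Chil3 was detected in every library's monocytes at 2394, 2007, 3123 and 2437 CPM, against 4.46, 4.44, 7.7 and 11.1 CPM in C1q macrophages, the cells with at least 10 C1q UMIs per 10000 of the same library. Ly6c2 measured 979, 1092, 953 and 1260.3 CPM in monocytes and 20.2, 14.4, 11.2 and 17.8 CPM in these macrophages. Both were rule genes, so this difference was built in. The near-identical neighbour Ly6c1 measured 0, 1.97, 3.73 and 0.837 CPM in monocytes and Chil4, the close relative of Chil3, had 0 UMIs, so few reads of the gene pairs were assigned to the other copy.

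Most cells carried transcripts of both genes. A UMI of Chil3 and of Ly6c2 was found together in 167 of 242 monocytes (69.0%), Chil3 alone in 37 (15.3%) and Ly6c2 alone in 38 (15.7%). The summed value of the pair had medians of 24.1, 21, 24.8 and 25.7 per 10000 UMIs and reached 122, 106, 172 and 143. No C1q UMI at all was found in 27 of 34, 24 of 46, 17 of 54 and 56 of 108 monocytes.

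**Figure D1:**
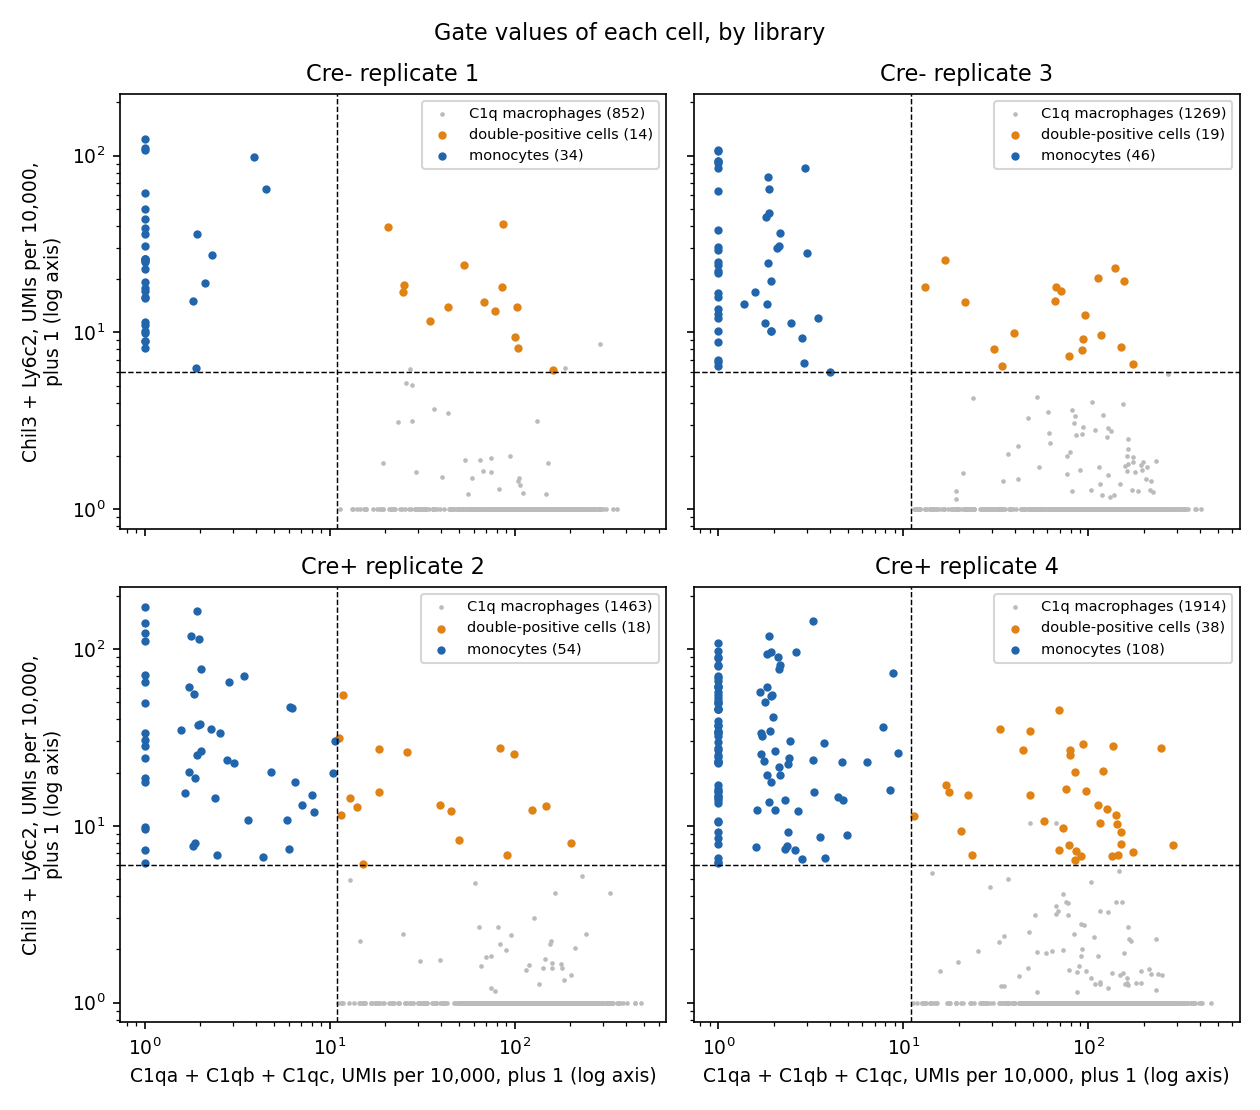
Summed Chil3 and Ly6c2 (vertical, log axis) against summed C1qa, C1qb and C1qc (horizontal, log axis), both as UMIs per 10000 plus 1, for each cell of the 4 libraries. Dashed lines mark the gate values of 5 and 10, blue points are monocytes, orange points the double-positive cells that also reached the C1q value, and grey points the other C1q macrophages, which here exclude the double-positive cells.

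Cells on either side of the gate values were compared without a test. The 22 monocytes with a summed Chil3 and Ly6c2 value of 5 to 7 measured 564 CPM of Ms4a4c and 1085 CPM of Ccr2, and the 23 cells just outside, at 3 to 5 with at least 2 UMIs, measured 724 and 1119 CPM. On the C1q axis the 14 monocytes at 5 to 10, 9 from Cre+ replicate 2, 5 from Cre+ replicate 4 and 0 from Cre- libraries, measured 846 CPM of Ms4a4c, 3470 CPM of Plac8, 3908 CPM of Apoe, 124 CPM of Mrc1 and 5105 CPM of Cd74. The 8 cells just outside, at 10 to 15 and 6 of them from Cre+ replicate 2, measured 1035, 2807, 2400, 418 and 10721 CPM of these genes. A further 81 cells that met the Chil3 and Ly6c2 criteria lay above 15 on the C1q axis, with 751 CPM of Ms4a4c and 10411 CPM of Apoe. These 89 double-positive cells numbered 14, 19, 18 and 38 by library and were counted with the macrophages. Another 10 cells met the Chil3 and Ly6c2 criteria but lay above 50 for S100a8 and S100a9, 2, 2, 3 and 3 by library. They held 0, 0, 0 and 2012 CPM of Ms4a4c and 0, 0, 0 and 1623 CPM of Ccr2.

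The label was checked against markers of other cells. The neutrophil genes Retnlg, Ly6g, Camp, Ngp and Stfa2l1 were at 0 in all 4 monocyte sums. Camp was also at 0 in the neutrophils, so its absence does not tell the classes apart. The 17 neutrophil markers together came to 488, 319.9, 365 and 449 CPM in monocytes, with Trem1 the most abundant, and to 187, 210.2, 182 and 169.7 CPM in macrophages. Of 10 tested outside the gate, 6 were called higher in monocytes than in macrophages. Xcr1 and Zbtb46 of conventional dendritic cells, Siglech of plasmacytoid dendritic cells, Cd3d of T cells and Cd79a and Ms4a1 of B cells were at 0. Other members of these lists were present. The 12 conventional dendritic cell markers summed to 139, 194, 116 and 70.3 CPM in monocytes, led by Batf3, and 89.7, 95.3, 121 and 62.9 CPM in macrophages. The 6 plasmacytoid markers summed to 442, 535, 323 and 485 CPM in monocytes, led by Bst2, which is also interferon-stimulated, and 853, 738, 837 and 930.4 CPM in macrophages. The 13 T and NK cell markers, led by Il7r, summed to 36.9, 25.7, 5.59 and 35.1 CPM in monocytes, and the 8 B and plasma cell markers, led by Ighm, to 73.7, 79, 166 and 42.7 CPM. In macrophages these came to 70.5, 51.9, 50.9 and 78.7 CPM and to 100.5, 107, 161 and 102 CPM. The part of such cells in the monocyte values was not tested. Flt3, a receptor of dendritic cell progenitors, measured 14.2, 23.7, 9.32 and 5.86 CPM from 29 UMIs, and Cd209a was seen in 3.31% of monocytes, 6.12% of macrophages and 0.958% of epithelial cells. The 12 epithelial markers summed to 399.9, 444, 389.7 and 336 CPM in monocytes and 461, 465, 459.7 and 304 CPM in macrophages, with Wfdc18, a milk protein gene, the most abundant in both. Wfdc18 measured 9527 CPM among barcodes of at most 100 UMIs in Cre+ replicate 4, the library deposited with its empty droplets, where Chil3 measured 20.9, Ly6c2 31.5 and Ccr2 30.9 CPM.

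The monocytes and the C1q macrophages of the same tumors differed in classical monocyte genes, tissue macrophage genes, cell cycle genes and many interferon-stimulated genes. In the comparison of class sums within each mouse, 1364 of 12098 genes were called higher in monocytes and 1951 lower (edgeR quasi-likelihood test with the mouse as a block, Benjamini-Hochberg adjusted p under 0.05). Called genes were 27.4% of those tested, 11.3% higher and 16.1% lower, and the median log2 fold change of all genes was -0.15. Since the gate itself separated the classes, genes that vary with the gate genes from cell to cell are not independent of the choice of cells, and the p-values describe how repeatable the differences were across 4 mice. Without Cre+ replicate 4 there were 1101 genes higher and 1452 lower.

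Ms4a4c and Ccr2, the markers that the gate did not use, were both called higher. Ms4a4c measured 715, 693, 625 and 961 CPM in monocytes and 64.8, 63.3, 64.2 and 180.2 CPM in macrophages (log2 fold change 3.18 ± 0.18 SE, adjusted p = 2.94e-10). Ccr2, the receptor for CCL2, measured 1126, 1448, 1637 and 932 CPM in monocytes and 229, 258, 414 and 72.4 CPM in macrophages (log2 fold change 2.64 ± 0.21 SE, adjusted p = 2.04e-08). Neither gene's ranges overlapped between the classes, and Cre+ replicate 4 held both the highest Ms4a4c and the lowest Ccr2 of the macrophage sums. A UMI of Ms4a4c was found in 87.6% of monocytes, 38.7% of macrophages and 2.53% of epithelial cells, which had median depths by library of 19229, 12056, 12351 and 9929 UMIs, against 11273, 17375, 12988 and 18221 UMIs in macrophages. Thinned to 2000 UMIs per cell, leaving out 8 shallower monocytes, these shares were 62%, 12.6% and 0.7%. Ccr2 was found in 92.6%, 33.4% and 5.38%, or 79.5%, 23.6% and 1.5% after thinning.

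Of 20 classical monocyte genes, 15 were called higher in monocytes and 1, Ly6a, lower, with a list median log2 fold change of 2.13. Hp, the haemoglobin-binding haptoglobin, measured 542, 506, 895 and 681 CPM in monocytes against 3.9, 6.61, 6.93 and 3.39 CPM in macrophages (log2 fold change 7.04 ± 0.22 SE, adjusted p = 1.7e-13). Plac8, a small cysteine-rich protein of myeloid cells, measured 4368, 3887, 3498 and 5305 against 56.6, 68.1, 164 and 154 CPM, a 38.5-fold difference of the means (log2 fold change 5.44 ± 0.26 SE, adjusted p = 2.77e-11). For both genes the lowest monocyte sum stood far above the highest macrophage sum. Vcan, the matrix proteoglycan versican, followed at a log2 fold change of 4.97 and Ifitm6 at 4.58. F13a1, coagulation factor XIII, was not called, at 391, 319.9, 597 and 388 CPM in monocytes and 319, 488, 747 and 108 CPM in macrophages (adjusted p = 0.394, edgeR).

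**Figure D2:**
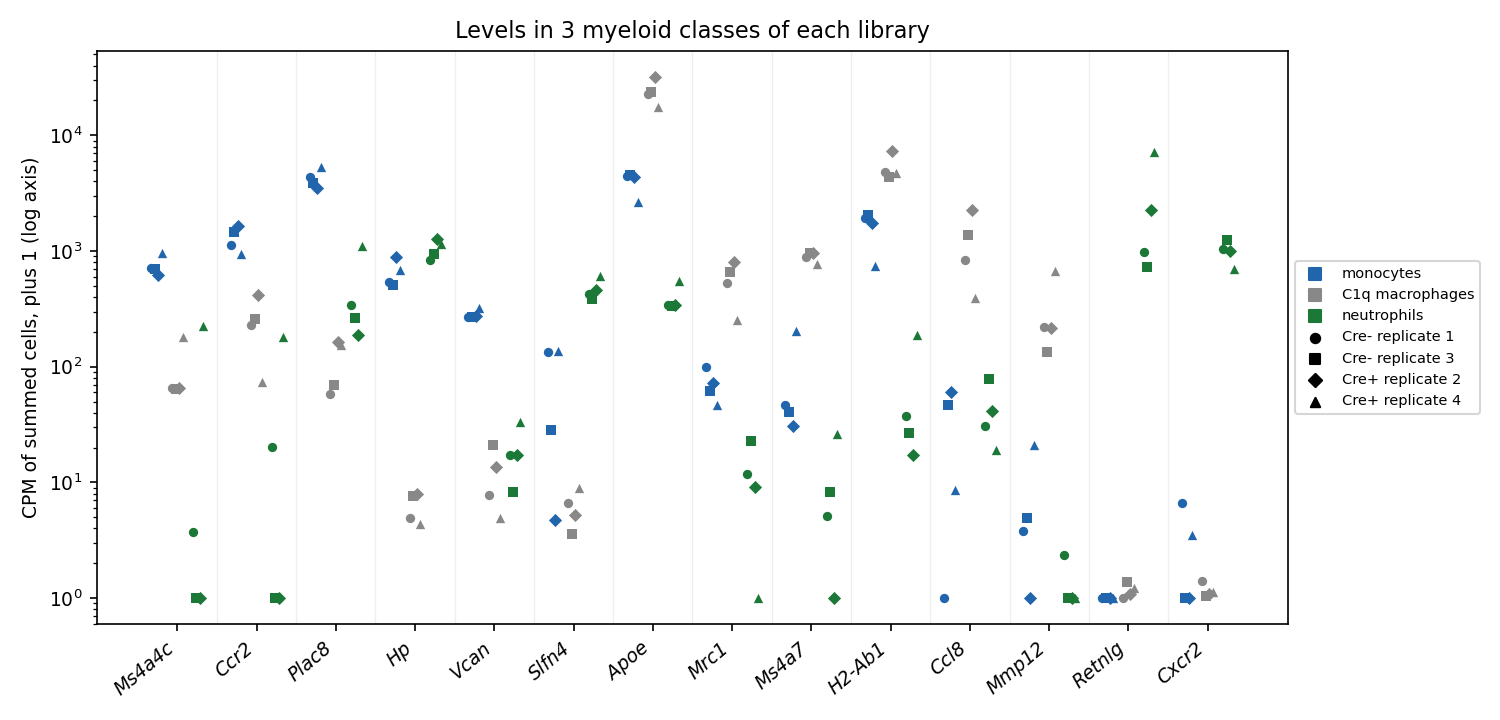
Level of 14 genes (vertical, CPM plus 1, log axis) in monocytes, C1q macrophages and neutrophils, a marker per library. Monocytes lie above macrophages for Ms4a4c, Ccr2, Plac8, Hp and Vcan in each library and below them for Apoe, Mrc1, Ms4a7, H2-Ab1, Ccl8 and Mmp12, Slfn4 overlaps, and Retnlg is at 0 in monocytes.

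Among genes called higher whose sums did not overlap, the 10 with the greatest fold change included S1pr5, Cd177, Hp, Gm9733, Bmx, Arhgef37, Rab44, Ly6i and Gm31814. S1pr5, a sphingosine-1-phosphate receptor of patrolling monocytes and NK cells, rested on 15 UMIs in 11 monocytes (log2 fold change 8.10 ± 1.05 SE, adjusted p = 9.48e-06). It had a UMI in 1 of 5587 macrophages, so its counts came almost only from the class where it was high, and these values are a description. Bmx, a Tec family kinase, rested on 12 UMIs. Both genes had results in 9 alternatives, against 15 for Cd177. Cd177, a surface glycoprotein best known from neutrophils, had 151 UMIs and measured 36.9, 82.9, 57.8 and 54.4 CPM in monocytes and 0.398, 0.209, 0.578 and 0.313 CPM in macrophages (log2 fold change 7.33 ± 0.37 SE, adjusted p = 6.03e-11). Ly6i, another gene of the Ly6 cluster, measured 73.7, 51.3, 31.7 and 66.1 against 1.43, 0.377, 0.77 and 1.02 CPM, with the caution that Ly6 genes are similar in sequence.

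Genes of nonclassical monocytes were also higher, in 10 of 15 tested, with 3 called lower and a list median of 2.05. Pglyrp1, a peptidoglycan recognition protein, measured 17, 23.7, 82 and 78.7 CPM in monocytes and 1.59, 1.21, 0.674 and 2.3 CPM in macrophages (log2 fold change 5.14 ± 0.41 SE, adjusted p = 1.72e-08). Ace, angiotensin-converting enzyme, measured 11.3, 33.6, 54.1 and 78.7 against 2.79, 2.51, 3.22 and 1.67 CPM (log2 fold change 4.24 ± 0.40 SE, adjusted p = 1.65e-07), and Adgre4, an adhesion receptor, 59.6, 41.5, 80.2 and 50.2 against 5.82, 3.68, 5.15 and 1.67 CPM. In these 3 genes no monocyte sum fell within the macrophage range. Nr4a1 was 2.26-fold higher by the means, while the fractalkine receptor gene Cx3cr1 was 2.34-fold lower and the integrin gene Itgax 6.52-fold lower.

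Each of 4 nonclassical genes, Ace, Treml4, Adgre4 and Spn, was found in a minority of the monocytes. Whether they fell in the same cells more often than separate detection would give was not tested. At least 2 of Ace, Treml4, Adgre4 and Spn had a UMI in 13 of 34, 8 of 46, 13 of 54 and 37 of 108 monocytes. Over all libraries a UMI was found in 30.2% of monocytes and 0.454% of epithelial cells for Treml4, 29.8% and 0.463% for Adgre4 and 20.2% and 1.39% for Spn. Ace was found in a similar share of epithelial cells, 23.7% against 22.3% of monocytes, or 5.35% against 9.4% after thinning to 2000 UMIs. Epithelial Ace measured 25.9, 17.7, 39.4 and 3.16 CPM, in Cre- replicate 1 above the level of the monocytes, so Ace was not particular to the monocytes. Among barcodes of at most 100 UMIs in Cre+ replicate 4, Ace measured 3.21 CPM. The part of free RNA in its monocyte level was not tested. The 71 cells with at least 2 of the 4 genes held 686 CPM of Ly6c2, against 1296 CPM in the other 171, whereas Chil3 stood at 2779 against 2377 CPM and Plac8 at 5999 against 3955 CPM. The 37 monocytes with Chil3 but no Ly6c2 UMI held 146 CPM of Ace, the 38 with Ly6c2 but no Chil3 UMI 11.7 CPM, and the 167 with both 49.2 CPM. The excess of Chil3-only cells came from Cre+ libraries, at 210 against 39.4 CPM in replicate 2 and 274 against 65.4 CPM in replicate 4, while they held 12.1 against 12.7 CPM in Cre- replicate 1 and 40.2 against 42.1 CPM in Cre- replicate 3. These splits were made after the values were seen, and no test was run on them.

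Tissue macrophage genes were lower in monocytes in 20 of 22 tested genes and higher in 0, with a list median of -2.80. Apoe, apolipoprotein E, measured 4414, 4576, 4355 and 2644 CPM in monocytes and 22576, 23609, 32017 and 17456 CPM in macrophages (log2 fold change -2.55 ± 0.15 SE, adjusted p = 5.73e-10). Vcam1, a vascular adhesion molecule also made by macrophages, had 3 UMIs in all monocytes and measured 212, 154, 229 and 235 CPM in macrophages (log2 fold change -7.51 ± 0.33 SE, adjusted p = 1.17e-11). Lyve1, the hyaluronan receptor of perivascular macrophages, had 1 UMI in monocytes against 34, 90.4, 175 and 15.6 CPM (log2 fold change -7.36 ± 0.47 SE, adjusted p = 1.16e-09). Gas6, a ligand of TAM receptors, was 48.4-fold lower and the tetraspanin gene Cd81 33-fold lower by the means. Mrc1, the mannose receptor, measured 99.3, 61.2, 70.8 and 46 against 529, 664, 805 and 250.1 CPM. Apoe stood at 8646 CPM in the barcodes of at most 100 UMIs of Cre+ replicate 4, and the part of free RNA in its monocyte level was not tested. Timd4, a phosphatidylserine receptor, had 0 UMIs in monocytes and was not called.

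Of 16 lipid-associated macrophage genes, 13 were called lower and 1, Apoc2, higher, with a median of -1.91. Mmp12, macrophage elastase, measured 2.84, 3.95, 0 and 20.1 CPM in monocytes and 219, 134, 217 and 670.5 CPM in macrophages (log2 fold change -5.42 ± 0.28 SE, adjusted p = 1.01e-10). Cd63, a lysosomal tetraspanin, was 16.8-fold lower and Ctsd, the protease cathepsin D, 7.25-fold lower. Spp1, osteopontin, measured 1239.5, 109, 48.5 and 717 against 5742, 1377, 1539 and 593 CPM (log2 fold change -2.48 ± 0.52 SE, adjusted p = 0.00124), so in Cre+ replicate 4 the monocytes were above the macrophages and the ranges overlapped. Without the block its adjusted p was 0.111, and with the upper limits on genes and UMIs it was 0.112.

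Of 8 genes of antigen presentation on MHC class II, 5 were called lower in monocytes and 0 higher, with a median of -1.07. Cd74, the invariant chain, measured 4513, 5512, 5055 and 2167 CPM in monocytes and 10788, 10585, 17949 and 11326 CPM in macrophages (log2 fold change -1.57 ± 0.20 SE, adjusted p = 5.66e-06). H2-Ab1, a class II beta chain, measured 1926, 2052, 1743 and 742 against 4839, 4386, 7346 and 4744 CPM (log2 fold change -1.76 ± 0.21 SE, adjusted p = 3.27e-06), and H2-Eb1 had the greatest change of the list (log2 fold change -2.23 ± 0.26 SE, adjusted p = 2.29e-06). Cre+ replicate 4 had the lowest monocyte level of all 3 genes. Ciita, the class II transactivator, was not called (39.7, 63.2, 83.9 and 15.1 against 42, 36.8, 70.3 and 25.4 CPM).

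The class II genes were concentrated in a minority of the monocytes. Their sum had medians of 14.6, 21.8, 30 and 8.9 per 10000 UMIs, upper quartiles of 118, 124, 140.5 and 35.4, and highest values of 574, 551, 920.2 and 616. Cells of at least 100 per 10000 numbered 10, 13, 17 and 18, or 29.4%, 28.3%, 31.5% and 16.7% of the monocytes. Together these 58 cells held 979 CPM of Chil3, 1673 CPM of Ccr2 and 5656 CPM of Apoe, against 2988, 1051 and 2943 CPM in the other 184. Zbtb46, a transcription factor of conventional dendritic cells, had 0 UMIs in both sets. The libraries differed in 2 other dendritic cell genes. Cd209a had 9, 1, 7 and 1 UMIs in the 58 cells against 0, 10, 0 and 1 in the others, so that in Cre- replicate 3 most lay in the others. Flt3 had 3, 7, 0 and 0 UMIs in the 58 cells against 2, 5, 5 and 7 in the others, with none in the 58 cells from Cre+ libraries. The value of 100 was set after the distribution was seen.

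**Figure D3:**
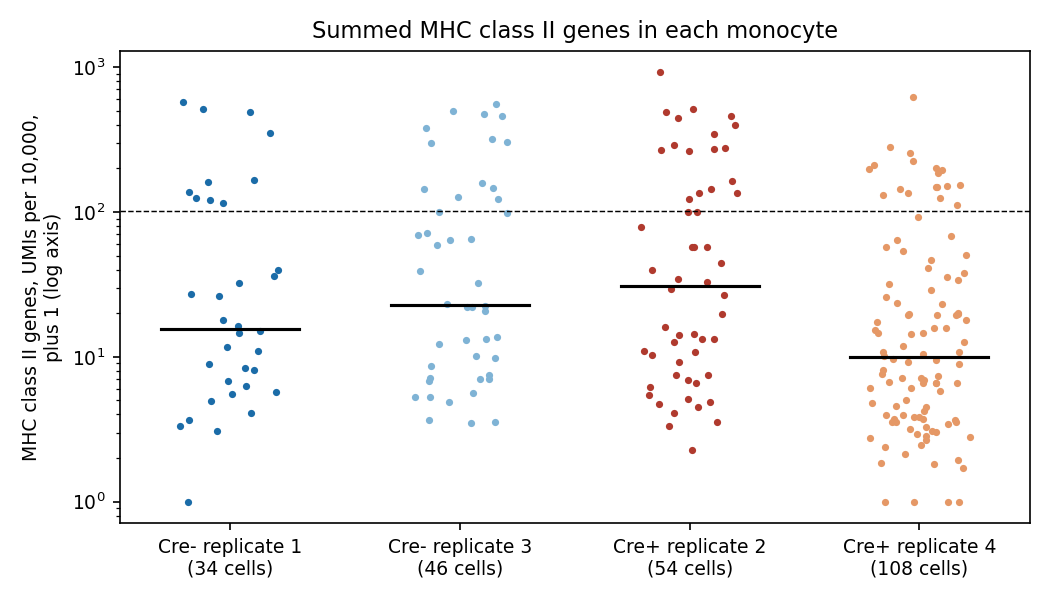
Summed UMIs of 8 MHC class II genes per 10000 (vertical, plus 1, log axis) in each monocyte of the 4 libraries, with black bars at the medians and a dashed line at 100. Cells above the line number 10, 13, 17 and 18, and the median is lowest in Cre+ replicate 4.

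Interferon-stimulated genes were higher in monocytes in 23 of 33 tested and lower in 1, with a list median of 0.93. Slfn1, a schlafen family gene, measured 130.5, 178, 95.1 and 256 CPM in monocytes and 17.2, 19.2, 30.2 and 37.6 CPM in macrophages (log2 fold change 2.69 ± 0.21 SE, adjusted p = 1.43e-08). Ifi205, of the nuclear DNA-sensing Ifi200 family, measured 139, 90.8, 35.4 and 131 against 12.8, 14.7, 17 and 20.7 CPM (log2 fold change 2.56 ± 0.26 SE, adjusted p = 4.42e-07), and Isg20, an exonuclease, 76.6, 81, 29.8 and 95.4 against 10.3, 10.6, 10.3 and 25.2 CPM. Cre+ replicate 2 was the lowest monocyte library in all 3. Slfn4 had the greatest fold change of the list, but at 133, 27.6, 3.73 and 136 CPM its monocyte sums overlapped the macrophage range of 5.58, 2.6, 4.19 and 7.94 CPM. The summed list came to 4592, 4209, 2267 and 6962 CPM in monocytes and 1302, 1525, 1875 and 3334 CPM in macrophages. Without the mouse block 14 of the 33 were called higher. Ifi44 was the exception, at 0, 5.92, 0 and 6.69 CPM in monocytes and 17.4, 10.5, 22.7 and 40.1 CPM in macrophages (log2 fold change -2.69 ± 0.45 SE, adjusted p = 0.000173).

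Inflammatory mediators split in both directions, with 7 of 20 called higher, 5 lower and a median of 0.02. Il1b, the cytokine interleukin-1 beta, measured 4873, 4509, 4385 and 4546 CPM in monocytes and 2178, 2123, 2809.8 and 1942 CPM in macrophages (log2 fold change 1.07 ± 0.14 SE, adjusted p = 1.51e-05). Ptgs2, the prostaglandin synthase COX-2, was 3.36-fold higher by the means and Il6 3.4-fold, the latter with overlapping ranges. Few cells carried the Il6 UMIs, of which 1 cell held 6 of 7 in Cre- replicate 1, 20 of 30 in Cre- replicate 3, 12 of 45 in Cre+ replicate 2 and 84 of 103 in Cre+ replicate 4. Tnf fell by 2.07 on the log2 scale, at 42.5, 101, 89.5 and 45.2 against 211, 406, 276 and 261 CPM (log2 fold change -2.07 ± 0.17 SE, adjusted p = 3.57e-08), and Il1a was 9.49-fold lower. Il12b, a subunit of interleukin-12, had 0 UMIs in monocytes and was called lower, a description only, since its counts came from the macrophages alone.

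Chemokine genes were mostly lower, in 11 of 19 tested, with 1, Cxcl3, higher and a median of -1.45. Cxcl3 had 0 UMIs in the monocytes of Cre- replicate 3 and was not called by DESeq2, at adjusted p = 0.314. Ccl8, a monocyte attractant made by tissue macrophages, measured 0, 45.4, 59.7 and 7.53 CPM in monocytes and 835, 1379, 2266 and 393 CPM in macrophages (log2 fold change -5.47 ± 0.28 SE, adjusted p = 7.56e-11). Cxcl16, a membrane-bound chemokine, measured 190.05, 111, 41 and 73.6 against 659, 639.8, 643 and 669.5 CPM (log2 fold change -2.78 ± 0.24 SE, adjusted p = 6.57e-08). Both gene ranges were separate between classes. Ccl12 measured 56.7, 23.7, 1.86 and 840.2 against 372, 480.2, 341 and 1182 CPM and overlapped (log2 fold change -2.68 ± 0.49 SE, adjusted p = 0.000408), and its adjusted p was 0.421 by edgeR without the mouse block. Pf4, platelet factor 4, was 5.71-fold lower.

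Chemokine receptors were called higher for 4 of 12 (Cxcr2, Fpr2, Ccr2 and Cxcr4) and lower for 3 (Cx3cr1, C5ar1 and Ccrl2), with a median of 0.03. Fpr2, a formyl peptide receptor, measured 34, 41.5, 18.6 and 41 against 3.19, 3.64, 6.26 and 4.7 CPM (log2 fold change 2.97 ± 0.33 SE, adjusted p = 1.64e-06), and the Cxcr2 call rested on 5 UMIs in monocytes. Of 16 adhesion and trafficking genes 10 were higher and 4 lower, with a median of 0.67. Itgb7, the integrin beta 7 chain, measured 130.5, 103, 179 and 119 against 4.54, 6.24, 5.97 and 2.69 CPM (log2 fold change 4.87 ± 0.22 SE, adjusted p = 1.24e-11), and the matrix gene Emilin2 and Itgal, the alpha chain of LFA-1, were 4.76-fold and 4-fold higher. S1pr1, a receptor for egress from tissue, was 5.64-fold lower.

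Myeloid transcription factors were called higher for 11 of 32 and lower for 8, with a median of 0.12. Cebpb, a factor of inflammatory and nonclassical monocytes, measured 3007, 3079, 3166 and 3072 CPM in monocytes and 728, 975, 903 and 769 CPM in macrophages (log2 fold change 1.91 ± 0.14 SE, adjusted p = 6.31e-09). Hif1a, the hypoxia-inducible factor, was 2.62-fold higher and Cebpd 2.41-fold higher. Lower were Egr1, an immediate early factor (3.63-fold), Pparg (2.81-fold, from 10 monocyte UMIs, and not called by DESeq2 or without any of Cre- replicate 1, Cre- replicate 3 and Cre+ replicate 2), Cebpa (2.57-fold) and Maf (2.54-fold). Spi1 itself measured 411, 506, 485 and 585 against 319.5, 365, 364 and 401 CPM (log2 fold change 0.49 ± 0.13 SE, adjusted p = 0.0105).

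Cell cycle genes were lower in monocytes in 19 of 20, the exception being Hmgb2, with a list median of -3.87. Cenpf, a kinetochore gene, Ccna2 and Ccnb1, cyclins of the late cycle, had 0 UMIs in 242 monocytes, so that they were at least 23.7-fold, 19-fold and 16.9-fold lower than in macrophages, taking 3 UMIs over the 4 libraries as the limit. A UMI of Mki67 or Top2a was found in 21 of 242 monocytes and 1430 of 5587 macrophages, while Mki67 was found in 14.9% of epithelial cells. Thinned to 2000 UMIs, Mki67 was found in 1.71% of monocytes and 6.24% of macrophages. Other genes at 0 in monocytes and called lower with separate sums included Cxcl13, a chemokine that draws B cells (at least 36.4-fold), the class I-like gene H2-M2 (at least 24.6-fold, with an adjusted p of 0.0584 by edgeR without the mouse block) and the complement gene C6 (at least 18.6-fold). Asb2 and Capn3 followed at bounds of 13.4 and 12.6-fold, and Cenpe and Kif20b, both of mitosis, were in the same set of 10. The genes at 0 in monocytes passed the filter on low counts only through the macrophage sums, where they were high. Their calls and bounds are therefore a description.

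**Figure D4:**
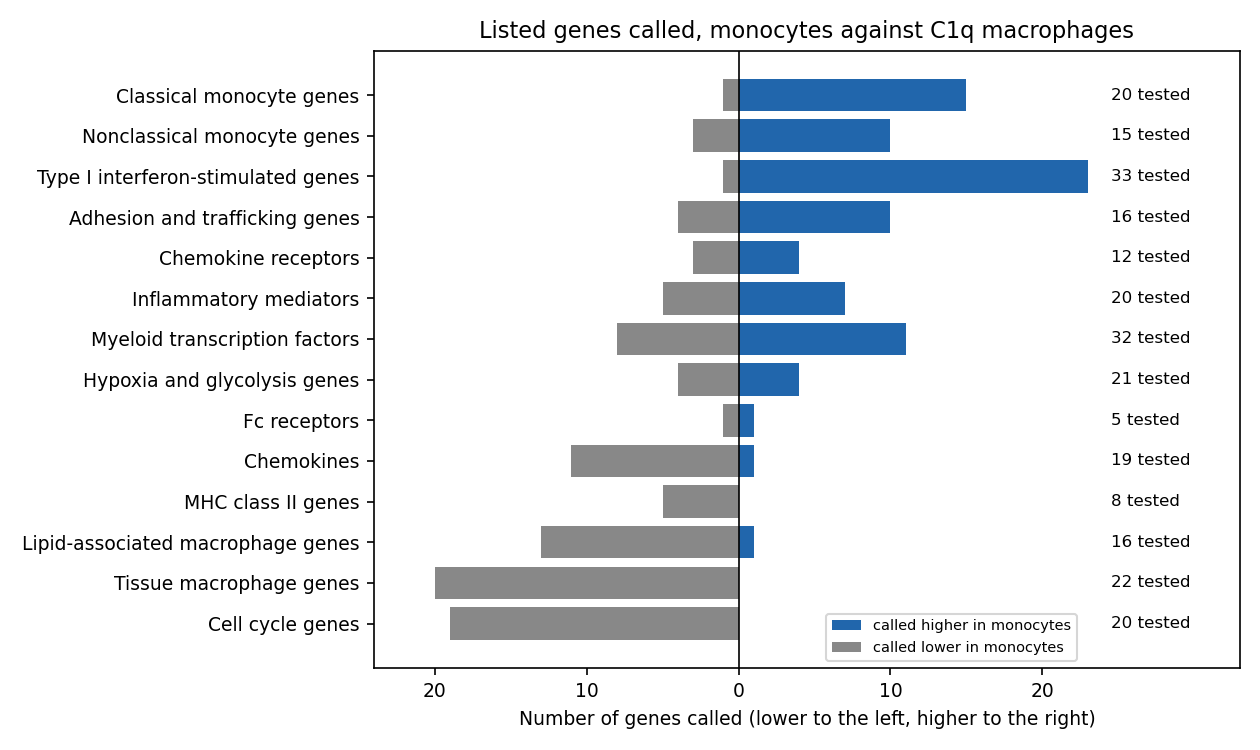
Number of genes of 14 lists called lower (left, grey) or higher (right, blue) in monocytes against C1q macrophages, with the number tested at the right. Classical monocyte and interferon-stimulated genes lie mostly to the right, and macrophage and cell cycle genes to the left.

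Of 8 genes of the FRMD8, iRhom and ADAM17 pathway, with a median of -0.02, the TNF receptors Tnfrsf1b (1.23 on the log2 scale) and Tnfrsf1a (0.98) were called higher in monocytes than in macrophages, and Tnf and the sheddase gene Adam17 (-0.57) lower. The Adam17 call was lost without Cre- replicate 3 and without Cre+ replicate 2, at adjusted p = 0.0798 and 0.0789 by edgeR. Rhbdf2, encoding the iRhom2 partner of that sheddase, was not called at 62.4, 25.7, 24.2 and 32.6 against 34.3, 29.5, 26.7 and 32.2 CPM.

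Against macrophages, hypoxia and glycolysis genes had 4 of 21 higher and 4 lower (median -0.21), or 2 and 0 of 20 without the mouse block. Fc receptors had 1 of 5 higher, Fcgr1, and 1 lower, Fcgr4 (median -0.25), and both calls were lost without the block. Immediate early and stress genes had 2 of 17 higher and 3 lower (median 0.09). Of 3 progenitor granule genes tested (median 1.21), Prtn3, the neutrophil protease proteinase 3, was higher by 3.98 on the log2 scale from 57 UMIs. Neutrophil markers outside the gate were higher for 6 of 10 tested (median 1.85), led by Mmp8, a neutrophil collagenase, at 48.2, 29.6, 50.3 and 49.4 CPM, and the 17 markers summed to 187, 210.2, 182 and 169.7 CPM in macrophages. Conventional dendritic cell markers were higher for Flt3 and Dpp4 among 9 tested (median 0.45). Plasmacytoid dendritic cell markers were lower for 2 of 4 (median -0.71), T and NK cell markers for 2 of 6 (median -0.48) and epithelial markers for 1 of 12 (median -0.19). Stromal and endothelial markers were lower for 7 of 12 (median -2.07). None of 3 B and plasma cell markers (median -0.44) or 4 mast cell and erythroid markers (median -0.97) was called.

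Against neutrophils, the S100a8 and S100a9 high cells of the same libraries (178, 68, 26 and 59 cells), 1198 of 5918 genes were called higher in monocytes and 1295 lower, 20.2% and 21.9% of those tested, with a median of 0.04. Neutrophils had median depths of 3634.5, 3867, 3801.5 and 3720 UMIs, below those of monocytes. Ccr2 measured 19.1, 0, 0 and 179 CPM and Ms4a4c 2.73, 0, 0 and 222 CPM in neutrophils (log2 fold change 5.13 ± 0.87 SE, adjusted p = 0.00133 for Ccr2, and log2 fold change 4.84 ± 0.92 SE, adjusted p = 0.00241 for Ms4a4c). Of the neutrophil sums, that of Cre+ replicate 4 was by far the highest for both genes. All of its 62 Ms4a4c and 50 Ccr2 UMIs lay within a set of 3 of the 59 cells, which also met the Chil3 and Ly6c2 criteria. Not each of these cells held Ms4a4c, since over all libraries 3 of 331 neutrophils had a UMI of it, with some in Cre- replicate 1. The neutrophil levels of these genes therefore rest on few cells near the gate. Classical monocyte genes were higher for 11 of 20 and lower for 6 (median 1.26), nonclassical genes higher for 6 of 13 and lower for 2 (median 1.37), and tissue macrophage genes higher for 12 of 14 and lower for 1 (median 2.58). All 7 MHC class II genes tested were higher in monocytes (median 4.60), led by H2-DMb1 at 241, 312, 393 and 174 against 0, 0, 0 and 21.5 CPM (log2 fold change 5.60 ± 0.72 SE, adjusted p = 0.000285). F13a1, which did not separate monocytes from macrophages, was 70.6-fold higher than in neutrophils, and Ptpro, a receptor phosphatase, 79.1-fold.

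Neutrophil markers were lower in monocytes in 12 of 13 tested (median -6.74), a direction the S100a8 and S100a9 limits of the gate bear on, with Retnlg, encoding a resistin-like protein, at 0 against 986, 726, 2268 and 7127 CPM. Mmp9, gelatinase B, had 1 UMI in monocytes against 837, 660.05, 680.3 and 515 CPM (log2 fold change -10.08 ± 0.44 SE, adjusted p = 2.58e-06), and Cxcr2, the chemokine receptor of neutrophils, 5 UMIs against 1040.3, 1236, 1004 and 702 CPM (log2 fold change -8.89 ± 0.46 SE, adjusted p = 4.83e-06). Il1b, higher in monocytes than in macrophages, was 3.98-fold lower than in neutrophils (log2 fold change -2.04 ± 0.21 SE, adjusted p = 8.4e-05). Inflammatory mediators were higher for 5 of 19 and lower for 12 (median -1.52), interferon-stimulated genes higher for 7 of 32 and lower for 11 (median -0.30), and chemokine receptors higher for 4 of 12 and lower for 8 (median -1.95). Il10 and the surface receptor Slamf8 had 0 UMIs in neutrophils and were at least 15.9-fold and 17.7-fold higher in monocytes. Their counts came from the monocytes alone, so these bounds are a description. With cells of Cre+ replicate 4 called by depth, 753 genes were higher and 753 lower, and without this library 973 and 1045. With depth calling the genes called lower fell to 1 for the classical list, 5 for the inflammatory list and 6 for the interferon-stimulated list, whose median was then 0.05.

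The genotype comparison asked whether monocytes differed between Cre+ and Cre- tumors. Their share of all cells was 0.691% (95% exact Clopper-Pearson interval 0.479 to 0.964) and 0.777% in Cre- libraries, and 0.963% and 1.52% in Cre+ libraries. The mean shares of 0.734% and 1.24% differed by 0.505 percentage points (exact two-sided permutation test over libraries, p = 0.33, n = 2 per genotype, the smallest value this design allows). Both Cre+ libraries lay above both Cre- libraries when all UMIs were used, and Cre+ replicate 2 was closer to the Cre- libraries than to Cre+ replicate 4. The difference was 0.229 percentage points without Cre+ replicate 4 and 0.782 without Cre+ replicate 2. With cells thinned to 2000 UMIs the genotypes overlapped, at 0.689%, 0.754%, 0.736% and 1.34%, and the difference was 0.316 percentage points (exact permutation p = 0.667). As a share of monocytes and C1q macrophages together the values were 3.78%, 3.45%, 3.52% and 5.24%, with overlapping genotypes and a difference of 0.767 percentage points (exact permutation p = 0.667). This difference was -0.0951 points without Cre+ replicate 4, 0.137 with its cells called by depth, 0.343 with stricter C1q gates and 0.0076 after thinning. The intervals cover counting error only, and the part of the sort in the shares was not tested.

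**Figure D5:**
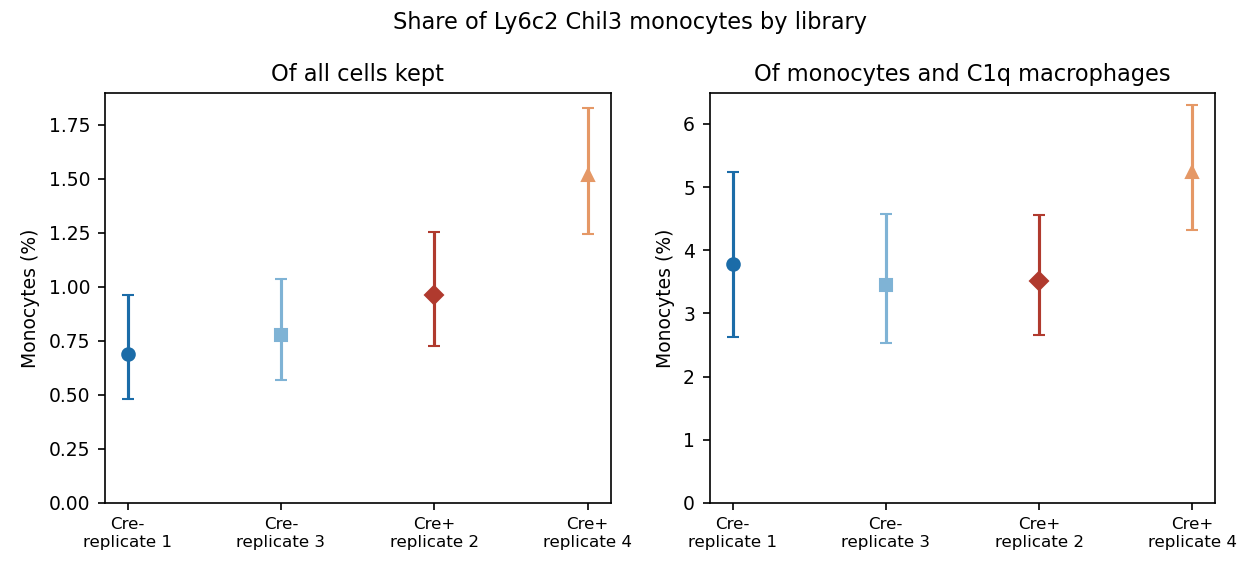
Monocytes as a percent of all cells kept (left) and of monocytes plus C1q macrophages (right) in each library, with 95% exact binomial intervals. The highest value in both panels is that of Cre+ replicate 4, at 1.52% and 5.24%.

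No gene was called between genotypes in monocytes, 0.0% of 5551 tested by edgeR, with 191 (3.44%) at an unadjusted p under 0.05, and DESeq2 also called 0, with 38 at an unadjusted p under 0.05. A gene that was not called is not thereby shown to be equal between genotypes. Monocyte levels of Ms4a4c (log2 fold change 0.18 ± 0.25 SE, adjusted p = 0.987) and Ccr2 (log2 fold change -0.01 ± 0.28 SE, adjusted p = 0.998) overlapped between genotypes. The median log2 fold change of Cre+ over Cre- was 0.06 over 20 classical monocyte genes, 0.35 over 13 nonclassical genes, -0.48 over 7 MHC class II genes and 0.49 over 20 hypoxia and glycolysis genes, against -0.0034 over all genes. The summed hypoxia and glycolysis genes measured 6376, 4157, 3979 and 9725 CPM and the summed class II genes 10229, 11986, 10892 and 4430 CPM. Cre+ replicate 4 alone stood outside the Cre- range for class II genes, and Cre+ replicate 2 had the lowest hypoxia sum of the 4 libraries. Conventional dendritic cell markers had a median of -0.93 over 4 tested, with the sums given above lower in both Cre+ libraries, and their part in the class II values was not tested. H2-Ab1 was lower in both Cre+ libraries, by a narrow margin in replicate 2 (1926, 2052, 1743 and 742 CPM), and was not called. Leaving out Cre+ replicate 2 gave 4 genes higher and 5 lower, and leaving out Cre+ replicate 4 gave 5 higher and 22 lower, with the lone Cre+ library then assumed to vary like the Cre- libraries. The difference between monocytes and macrophages itself differed between genotypes for 47 of 12098 genes, 0.388%, with 0.174% higher and 0.215% lower in Cre+ by edgeR, and DESeq2 called 0. H2-Ab1 (-1.21, adjusted p = 0.0342 by edgeR) and H2-Eb1 (-1.51, adjusted p = 0.00153 by edgeR) were the class II genes among the 47. Of 14 alternatives run, H2-Ab1 was called in 9 and H2-Eb1 in 10. H2-Eb1 measured 1228, 1349, 1158 and 301 CPM in monocytes and 3755, 3749, 6179.6 and 3701 CPM in macrophages. For both genes Cre+ replicate 4 was the lowest monocyte library and Cre+ replicate 2 the highest macrophage library.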

How the data were processed

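Single-cell 3′ libraries of 4 tumors were made with the 10x Chromium v3 kit. The values the authors deposited are raw counts, the UMIs of each gene in each barcode, made with Cell Ranger 6.1.2 for replicates 1 to 3 and Cell Ranger 4 for replicate 4 per the file headers. The submitters' notes name build hg38 although the genes carry mouse identifiers, and no other build is given in the sources used here. Totals were 122658098, 126843597, 112729231 and 157662955 UMIs, the last over 2582424 unfiltered barcodes. The gate was applied per cell, and the counts of each class were added up by library. Class sums were tested with edgeR 4.0.16 (R 4.3.3; TMM, filterByExpr, quasi-likelihood, mouse as a block for class comparisons, Benjamini-Hochberg over all genes tested, threshold 0.05), leaving the 13 gate genes out of the calls. DESeq2 1.42.0 served as an alternative, and exact permutation tests were run on shares. The fits were tested on simulated data. Thinning used up to 1000 macrophages and epithelial cells per library. Named genes were the markers, Frmd8, listed genes with called members of greatest fold change as examples, and up to 10 called genes per direction whose sums did not overlap. Genes named beyond this rule, among them F13a1, Mrc1, Ciita, Rhbdf2, Spi1, Lyz1 and Cxcl10, were chosen after their values were seen. Some genes are not reported here. The members and lists were chosen with earlier results of these data known. Counts have no correction for free RNA or doublets.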

Additional observations from a re-analysis of the deposited data

Results flagged for a closer look

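The monocyte to macrophage difference itself differed between genotypes for 47 of 12098 genes (0.388%, edgeR interaction term of class and genotype, adjusted p under 0.05), 21 higher and 26 lower in Cre+ relative to Cre-. DESeq2 called 0 genes, with 171 genes at an unadjusted p under 0.05. The genes described here had low p-values and were picked after their values were seen. Hbb-bs, a haemoglobin gene, also had a low p (13.4 ± 1.92 SE, adjusted p = 1.29e-08, edgeR). Its 27 monocyte UMIs all came from Cre+ replicate 4, where it measured 507 CPM among barcodes of at most 100 UMIs. Igfbp3, Cldn5 and Lyz1, whose monocyte UMIs came largely from single cells, were also among the 47. Tppp3, a tubulin polymerization protein, measured 87.9, 81, 315 and 172 CPM in monocytes and 41.1, 72.1, 78.7 and 6.89 CPM in macrophages (difference of log2 fold changes 2.66 ± 0.34 SE, adjusted p = 1.37e-10, edgeR). Ear2, an eosinophil-type ribonuclease of nonclassical monocytes, measured 42.5, 69.1, 142 and 154 CPM in monocytes and 27.6, 34.8, 40.4 and 5.64 CPM in macrophages (2.44 ± 0.38 SE, adjusted p = 2.71e-07, edgeR). For both, the monocyte sums were higher in each Cre+ library, and the macrophages of Cre+ replicate 4 held by far the lowest macrophage level.

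Saa3, an acute phase gene, measured 5.67, 1.97, 52.2 and 32.6 CPM in monocytes and 96.2, 73.7, 127 and 11.6 CPM in macrophages, again lowest in the macrophages of Cre+ replicate 4 (4.61 ± 0.60 SE, adjusted p = 1.56e-10, edgeR), and 26 of 28 UMIs in Cre+ replicate 2 and 32 of 39 in Cre+ replicate 4 came from 1 cell each. Ifit1, an interferon-stimulated gene, measured 76.6, 88.9, 5.59 and 145 CPM in monocytes and 16.9, 24.2, 42.3 and 89.8 CPM in macrophages (-2.19 ± 0.38 SE, adjusted p = 1.11e-05, edgeR), and its low value in Cre+ replicate 2 was not shared by Cre+ replicate 4. Without Cre+ replicate 2 the counts were 92 higher and 35 lower, and without Cre+ replicate 4 they were 10 higher and 81 lower.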

How the results depend on the processing

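Calls of monocytes against macrophages stayed within 1.5 times of 1364 higher and 1951 lower under every alternative run. Against neutrophils, calling cells of Cre+ replicate 4 by depth gave 753 higher and 753 lower. In the genotype comparison, where 0 genes were called, omitting the filter on low counts gave 18 higher and 24 lower among 13434 genes, and leaving out a replicate gave 0 to 5 higher and 0 to 22 lower. The genotype difference of the class difference (21 higher, 26 lower) gave 12 higher with cells of Cre+ replicate 4 called by depth, 13 higher with stricter C1q gates, 4 higher and 3 lower with the upper limits on genes and UMIs, and 0 and 0 with DESeq2. Leaving out a replicate gave 7 to 92 higher and 13 to 81 lower. The difference in the share of monocytes among monocytes and macrophages ranged from -0.0951 to 1.63 percentage points when a replicate was left out, reversing without Cre+ replicate 4, and was 0.0076 after thinning, 0.137 with depth calling and 0.343 with stricter C1q gates, against 0.767. Thinning took the difference in the share of all cells from 0.505 to 0.316. When a replicate was left out it ranged from 0.229, without Cre+ replicate 4, to 0.782, without Cre+ replicate 2. The causes were not tested.

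Genotype changes that were not called turned direction for Ccr2 (0.00713 with depth calling, 0.036 without the filter, and -0.44 to 0.34 when a replicate was left out, positive at 0.22 without Cre- replicate 3 and 0.34 without Cre+ replicate 4), Frmd8 (-0.18 with stricter C1q gates, and -0.58 to 0.60 when a replicate was left out, negative at -0.055 without Cre- replicate 1 and -0.58 without Cre+ replicate 2) and Ms4a4c (-0.17 to 0.48, negative without Cre+ replicate 4). Fitted without the replicate block, H2-M2 had an adjusted p of 0.0584 and Ccl12, Fcgr1, Fcgr4 and Spp1 were no longer called, and Cxcl3 and Pparg were not called by DESeq2. Pparg was also lost without Cre- replicate 1, Cre- replicate 3 or Cre+ replicate 2, Adam17 without Cre- replicate 3 or Cre+ replicate 2, and Fcgr1 without Cre- replicate 1, Cre- replicate 3 or Cre+ replicate 4. No replicate number is shared by Cre- and Cre+ mice, so the block pairs only the classes of a mouse. With 34 to 108 monocytes per library, a gene at a few CPM rests on single UMIs.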

Other observations

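Cre- replicate 1 and Cre+ replicate 4 resembled each other in several listed genes of the monocytes, across the genotypes. Lipid-associated macrophage genes summed to 9187 and 8702 CPM in these libraries and to 4805 and 4674 CPM in Cre- replicate 3 and Cre+ replicate 2. Hypoxia and glycolysis genes summed to 6376 and 9725 CPM against 4157 and 3979 CPM. Spp1 stood at 1239.5 and 717 CPM against 109 and 48.5 CPM, and the chemokine gene Cxcl3 at 221 and 283 CPM against 0 and 31.7 CPM. Lyz1, a lysozyme gene, went the other way, at 0 and 12.6 CPM against 205 and 237 CPM, with 99 of 104 and 109 of 127 UMIs from 1 cell each in Cre- replicate 3 and Cre+ replicate 2, with the caution that Lyz1 and Lyz2 are similar in sequence. The libraries were compared after their values were seen and no test was run.

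Some library values came from a few cells. All 95 Igfbp3 UMIs and all 23 Cldn5 UMIs, the latter an endothelial junction gene, came from 1 monocyte each in Cre- replicate 3. Of 1329 Cxcl10 UMIs in the monocytes of Cre+ replicate 4, 508 came from 1 cell, and 176 of 221 in Cre- replicate 1. The 89 double-positive cells held 9290, 14239.6, 14552 and 6774 CPM of Apoe, above the monocytes and below the C1q macrophages in each library, and 933, 604, 775 and 799 CPM of Ms4a4c, against 715, 693, 625 and 961 CPM in the monocytes.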
